A study of Mus musculus with 3 samples.

Results

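The keratin loci described here are 3 stretches of the mouse genome around Krt19, Krt7, and the neighbouring genes Krt8 and Krt18. Their members are all SOX2 ChIP-seq peaks that overlap these stretches by at least 1 bp. They number 11 of 7213 peaks in the Sox2 wild-type list and 2 of 887 in the Sox2 knockout list, or 13 of 8100 in all. The stretches were chosen by gene position on the build mm9, with the peak lists already known. Counts, positions and scores of their peaks are therefore a description, and no test is made of them. The windows run on chromosome 11 from 99960000 to 100045000 for Krt19 (85 kb), on chromosome 15 from 101142000 to 101360000 for Krt7 (218 kb), and on chromosome 15 from 101727000 to 101963000 for Krt8 and Krt18 together (236 kb).

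Chromatin came from glands of the antrum, the lower stomach, of mice on a mixed C57BL/6 x 129 background. Knockout animals were Rosa26CreER; Sox2 fl/fl, with a tamoxifen-activated Cre at the broadly active Rosa26 locus, and wild-type animals were Rosa26WT; Sox2fl/fl, with the same loxP-flanked alleles and no Cre. Both genotypes received tamoxifen at 8 weeks of age and were sampled 2 weeks later. There was 1 ChIP library per genotype, made with goat anti-SOX2, and how many animals went into each is not stated in the labels. The share of gland cells that kept Sox2 after tamoxifen was not measured in these lists, and the wild-type input library was not analysed here. Read depths were unknown, so a difference in peak number between the genotypes and a difference in depth cannot be told apart.

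SOX2 is a transcription factor of the high-mobility-group box family that binds the minor groove of DNA at short A/T-rich sites, and it marks foregut and stomach epithelium. Keratins are the intermediate filament proteins of epithelia. An acidic type I chain pairs with a basic type II chain to form the filament. Krt8 (type II) and Krt18 (type I) form the primary pair of simple, single-layered epithelia such as gastric glands. Krt19 (type I) has a very short tail domain and is used as a marker of ductal epithelia, and Krt7 (type II) is known from ductal and other glandular epithelia. Type I genes lie mostly in a cluster on chromosome 11 and type II genes on chromosome 15, where Krt18 stands beside the type II cluster.

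Among the genes of the RefSeq table for GRCm38.p6, Krt8 and Krt18 were immediate protein-coding neighbours, with Krt78 on the other side of Krt8 and Eif4b, a translation initiation factor gene, on the other side of Krt18. Krt19 stood between Krt15 and Krt9, and Krt7 between Krt80 and Krt87. The table lists 25 genes named Krt with a number on chromosome 11 and 24 on chromosome 15. An annotation of mm9 was not used here, so no peak below is assigned to a gene, promoter, exon or intron, and a peak in a keratin window may lie nearer to a neighbouring gene than to the member that names the window.

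RefSeq promoter sequences on GRCm38.p6, from 250 bases before to 50 after the start, were matched by symbol for 3 of the 4 genes, Krt7, Krt8 and Krt18. They are shown for Krt8 and Krt18, whose window held peaks in both genotypes. The searched SOX core, CTTTG on either strand, is in capitals. The first sequence runs upstream of Krt8 on the minus strand and the second upstream of Krt18 on the plus strand, each the 250 bases before the start, 5′ to 3′.
Krt8: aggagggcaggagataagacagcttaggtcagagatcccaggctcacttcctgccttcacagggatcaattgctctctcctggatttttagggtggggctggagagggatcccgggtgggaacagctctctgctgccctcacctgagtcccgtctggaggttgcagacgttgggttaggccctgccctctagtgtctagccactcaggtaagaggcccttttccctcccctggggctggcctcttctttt
Krt18: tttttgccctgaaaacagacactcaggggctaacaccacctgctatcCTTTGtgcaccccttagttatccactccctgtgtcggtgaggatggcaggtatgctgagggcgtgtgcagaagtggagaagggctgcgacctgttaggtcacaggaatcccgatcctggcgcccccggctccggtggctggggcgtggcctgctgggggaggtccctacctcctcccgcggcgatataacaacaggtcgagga

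The Krt18 promoter held 1 CTTTG, beginning 203 bases before the start, and the next base extends it to CTTTGT. Neither the Krt8 nor the Krt7 promoter held CTTTG in its 300 bases. Only CTTTG and its longer forms were searched, so this does not show that other forms of a SOX site were absent. Of all 32851 promoters in the table, 53.9% held CTTTG, 18.7% held CTTTGT and 5.85% held CTTTGTT, and each longer form is counted within the shorter ones. None of the 3 keratin promoters held CTTTGTT. GC content was 66.3% for Krt7, 58.0% for Krt8 and 61.3% for Krt18, with a median of 52.7% over all promoters. These letters are a description of the reference sequence. The ChIP peaks are on mm9 and were not placed on these promoters.

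The peaks were unevenly spread over the keratin loci. The Krt19 window held 5 wild-type and 0 knockout peaks, the Krt7 window 1 wild-type and 0 knockout peaks, and the Krt8/Krt18 window 5 wild-type and 2 knockout peaks. Per 100 kb this made 5.88 wild-type peaks at Krt19, 2.12 at Krt8/Krt18 and 0.459 at Krt7. Each peak carries a score from the authors' peak caller, on a scale that no source names, and the lists begin at 50 (wild type) and 50.02 (knockout). The highest wild-type score was 555.08 at Krt8/Krt18, 312.13 at Krt19 and 73.18 at Krt7.

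**Figure D1:**
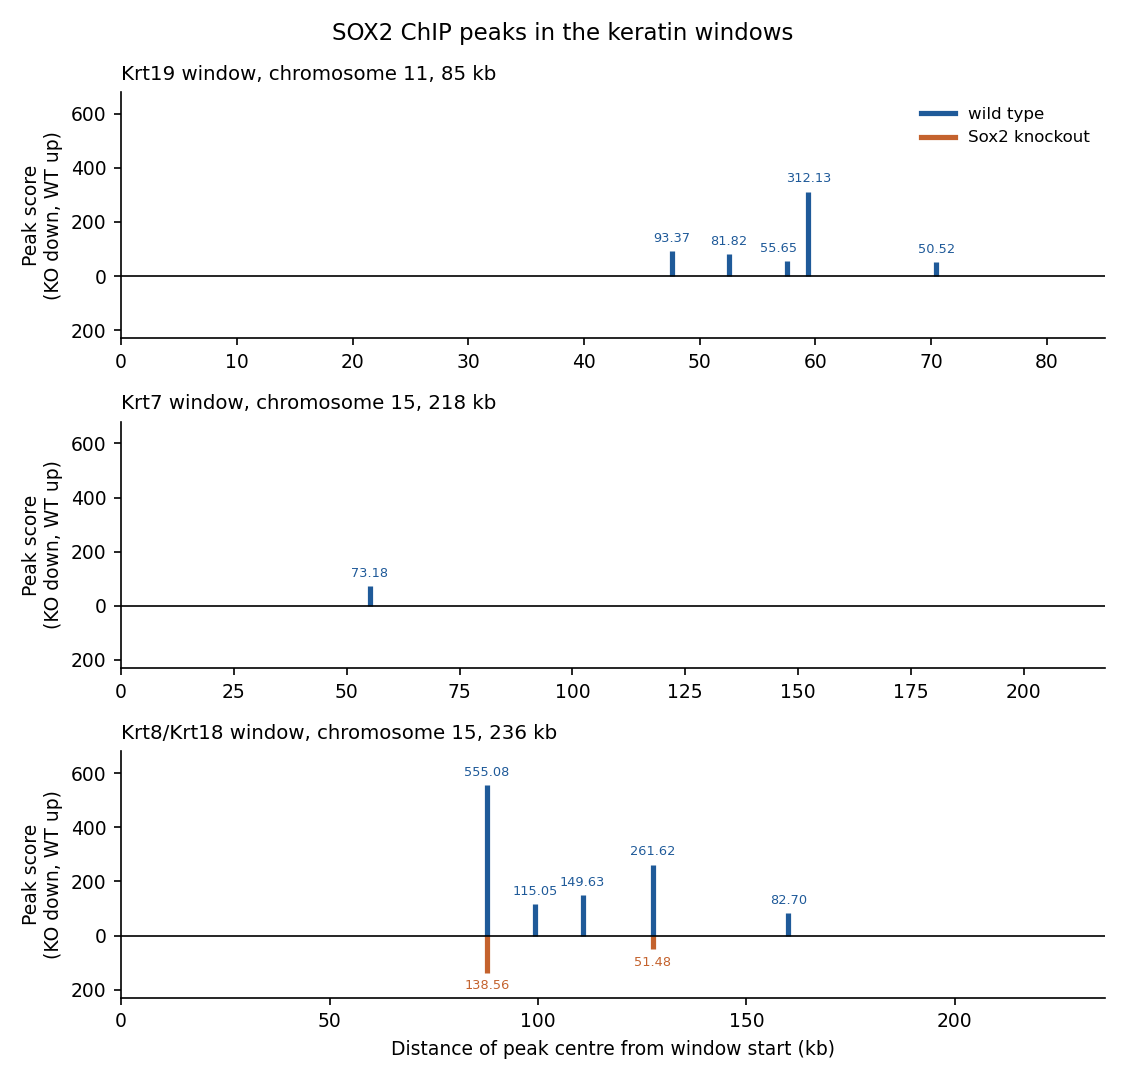
Peaks of the Krt19, Krt7 and Krt8/Krt18 windows, by distance of the peak centre from the window start (kb) and peak score (no unit), with wild-type peaks drawn upward and Sox2 knockout peaks downward. Knockout peaks appear in the Krt8/Krt18 window alone, with scores of 138.56 and 51.48, at the positions of the wild-type peaks of 555.08 and 261.62. Both lists share an axis for display only, and score levels are not comparable between them.

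At Krt8 and Krt18, the filament pair of simple epithelia, 4 of the 5 wild-type peaks scored at least 100. The first peak of the window, on chromosome 15 from 101814497 to 101815031, scored 555.08. It was number 100 of the 7213 wild-type peaks and number 3 of the 242 on its chromosome. The second peak, from 101826203 to 101826572, scored 115.05. The third, from 101837554 to 101837892, scored 149.63. The fourth, from 101854259 to 101854732, scored 261.62 and was number 515 of the list and number 15 on the chromosome. The fifth, from 101886876 to 101887228, scored 82.7, close to the median of the whole wild-type list (82.62). The locus therefore held 1 peak among the top 1.39% of the list, 1 at the top 7.14%, and 3 between the top 20.7% and 49.9%.

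The 5 peaks of the Krt8/Krt18 window lay within 72.7 kb. From left to right, 11171, 10981, 16366 and 32143 bp separated neighbours. In all 7123 runs of 5 consecutive wild-type peaks on a chromosome, 2.91% spanned no more than this, and the median run spanned 793 kb. Runs that share peaks are counted separately, and the 207 runs this short made up 99 separate stretches. Of these 207 runs, 97 held no peak with a knockout partner, and the others held at least 1. Peak widths ranged from 339 to 535 bp, against a median of 320 bp in the wild-type list, and the peak with the highest score was the widest. Across the 7213 wild-type peaks, which are not independent replicates, score and width had a Spearman rho of 0.81.

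Both knockout peaks of the keratin loci lay under the highest-scoring peaks of the Krt8/Krt18 window. The knockout peak from 101814565 to 101814950 lay wholly inside the wild-type peak of 555.08, with centres 6.5 bp apart. Its score was 138.56, number 64 of 887 knockout peaks and number 2 of the 28 on chromosome 15. The knockout peak from 101854297 to 101854723 lay wholly inside the wild-type peak of 261.62, with centres 14.5 bp apart. Its score was 51.48, number 847 of 887 and the lowest on chromosome 15, only 1.46 above the lowest score in the knockout list. Within the knockout list 7.22% of peaks scored at least as high as the former and 95.5% at least as high as the latter, so the pair stood near opposite ends of that list. Lying wholly inside a wild-type peak is common: 486 of the 592 knockout peaks that overlap a wild-type peak did so (82.1%, exact Clopper-Pearson 95% interval 78.8 to 85.1).

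The other 3 wild-type peaks of the Krt8/Krt18 window overlapped no knockout peak, like most of the wild-type list, of which 8.15% overlapped one. The nearest knockout peak was 11.3 kb from the peak of 115.05, 16.4 kb from the peak of 149.63 and 32.2 kb from the peak of 82.7. In each case it was one of the 2 knockout peaks just described. Ordered by score, the 2 peaks with a knockout partner stood above the 3 without one. This order is not particular to the locus. Over the whole list the share with a partner rose from 1.72% at scores of 50 to 100 to 66.4% at 400 to 600.

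At Krt19, the short-tailed type I keratin, 5 wild-type peaks lay close together and none overlapped a knockout peak. From left to right on chromosome 11, the first ran from 100007402 to 100007816 and scored 93.37. The second ran from 100012390 to 100012693 and scored 81.82, and the third from 100017392 to 100017608 scored 55.65. The fourth, from 100019013 to 100019759, scored 312.13 and was number 338 of the wild-type list and number 27 of the 500 on chromosome 11. The fifth, from 100030276 to 100030569, scored 50.52 and was number 7142 of the list. One peak thus stood far above 4 others that ranged from 50.52 to 93.37. It was also wide, at 747 bp, number 67 of 7213 by width, while the others measured 217 to 415 bp.

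The Krt19 peaks spanned 23.2 kb, with gaps of 4.57, 4.70, 1.40 and 10.5 kb between neighbours. Of the 7123 runs of 5 wild-type peaks, 0.491% (35 runs, in 14 separate stretches) spanned no more. Of those 35 runs, which share peaks, 11 held no peak with a knockout partner, the Krt19 run itself among them. The peaks sat in the right part of the window: the first began 47.4 kb from its start and the last ended 14.4 kb before its end. The nearest knockout peak was 916 kb from the first of them. Of the whole wild-type list, 8.15% of peaks overlapped a knockout peak, so having none was the common case. The share was 1.72% at scores from 50 to 100, where all Krt19 peaks but that of 312.13 lie. From 200 to 400 it was 29.9%. With 0 of 5 Krt19 peaks overlapping a knockout peak, an approximate upper limit (3 counts over the total) is 60%, for counting error only. This limit is coarse with so few peaks and is not the exact interval given for other shares.

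At Krt7, a type II keratin, the wild-type list held a single peak and the knockout list none. It ran on chromosome 15 from 101196876 to 101197216, measured 341 bp and scored 73.18, below the list median of 82.62. On its chromosome it was number 162 of 242. To its right, no wild-type peak followed for 617 kb, up to the peak of 555.08 in the Krt8/Krt18 window, so the right-hand 163 kb of the Krt7 window were empty. Of the 7189 gaps between neighbouring wild-type peaks on a chromosome, 14.3% were at least this long, and the median gap was 94 kb.

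The count at Krt7 depended on the limit of its window. A wild-type peak scoring 166.47, on chromosome 15 from 101130586 to 101130901, lay 11.1 kb to the left of the Krt7 window, and windows widened by 50 kb on each side held 2 Krt7 peaks. The Krt7 peak inside that limit scored 73.18 and lay 54.9 kb from it. The nearest wild-type peaks outside the Krt19 window were 605 kb to the left (score 124.09) and 103 kb to the right (153.9). Outside the Krt8/Krt18 window they were the Krt7 peak, 530 kb to the left, and a peak of 55.07, 265 kb to the right. The nearest knockout peaks beyond these loci lay 868 kb to the left and 1181 kb to the right of the Krt19 window, and 2692 kb to the left of the Krt7 window and 1031 kb to the right of the Krt8/Krt18 window.

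Each window was set beside all consecutive windows of the same width, laid over every chromosome from its first to its last peak. Since the loci were chosen with the lists known, these shares are given as a background alone. For Krt19, 0.173% of 29972 windows held at least 5 wild-type peaks (exact interval 0.130 to 0.227), the mean was 0.240 peaks and 83.8% held none. At least 1 knockout peak was found in 2.66% of them. Most of these windows held no wild-type peak, so they are unlike the Krt19 window with its 5. Among the 35 runs of 5 wild-type peaks spanning no more than the Krt19 run, 11 held no peak with a knockout partner. These runs share peaks, lie in 14 separate stretches, include the Krt19 run itself and were not matched on score. They therefore do not show how rare a cluster without a knockout partner is. For Krt7, 31.3% of 11682 windows held at least 1 wild-type peak (30.5 to 32.2) and 6.46% at least 1 knockout peak. For Krt8/Krt18, 2.02% of 10787 windows held at least 5 wild-type peaks (1.76 to 2.30), and 0.742% held at least 2 knockout peaks. No wild-type peak was found in 67% of them. The order of Krt19 and Krt8/Krt18 turned when only peaks scoring at least 100 were counted: 7.77% of windows held as many as Krt19 (1 peak) and 0.464% as many as Krt8/Krt18 (4 peaks). These windows include gene-poor stretches, and gene content was not taken into account.

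**Figure D2:**
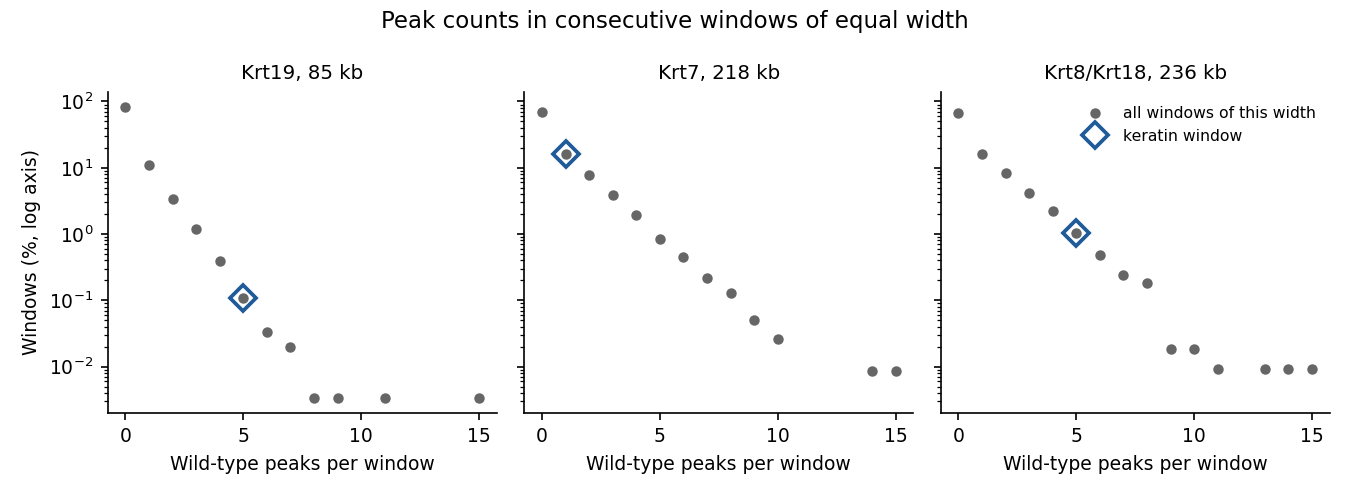
Share of all consecutive windows of equal width (%, log axis) that held each number of wild-type peaks, for the 85, 218 and 236 kb widths. Diamonds mark the keratin windows, with 5 peaks of any score at Krt19, 1 at Krt7 and 5 at Krt8/Krt18, of which 1, 0 and 4 scored at least 100.

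By its best peak, the order of the loci was Krt8/Krt18, Krt19, Krt7. A wild-type peak scoring at least 555.08 was found in 0.899% of windows of the Krt8/Krt18 width, one of at least 312.13 in 1.09% of windows of the Krt19 width, and one of at least 73.18 in 22.7% of windows of the Krt7 width. When the wild-type list was limited to the 887 peaks with the highest scores (197.89 or more), the length of the knockout list, 3 of the 11 keratin peaks were in it, 2 at Krt8/Krt18 and 1 at Krt19. Krt19 and Krt8/Krt18 had the same number of wild-type peaks, but at a score of at least 100 Krt8/Krt18 held 4, Krt19 held 1 and Krt7 held 0.

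**Figure D3:**
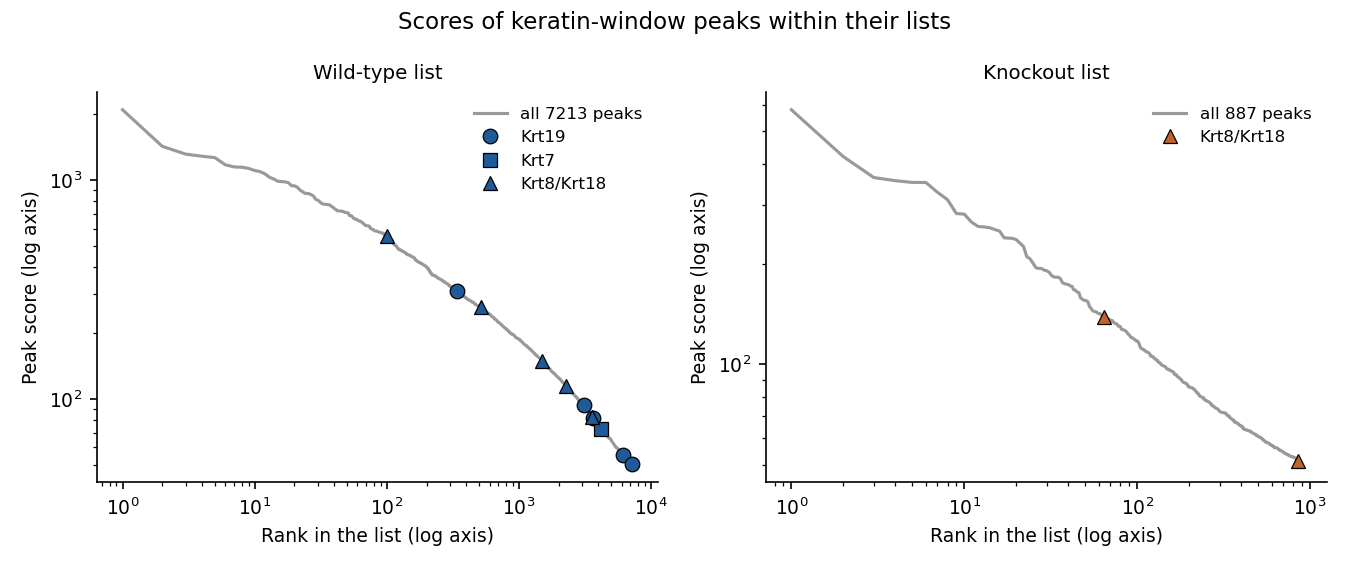
Score of each peak against its rank in its own list, both on log axes, for the wild-type list (left) and the knockout list (right). Markers show peaks of the keratin windows. The Krt8/Krt18 window has the peak at rank 100 of the wild-type list and peaks at ranks 64 and 847 of the knockout list.

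Over all keratin windows, 2 of 11 wild-type peaks overlapped a knockout peak (18.2%, exact interval 2.28 to 51.8), beside 8.15% of the whole wild-type list (7.53 to 8.81). The interval of the keratin peaks is wide and treats clustered peaks as independent. Since the loci were also chosen with the lists known, it is no test against the share of the list. By locus the share was 2 of 5 at Krt8/Krt18 (40.0%, 5.27 to 85.3), 0 of 5 at Krt19 and 0 of 1 at Krt7. Knockout partners were more frequent at high wild-type scores throughout the list, so the keratin peaks were also read by score band, with the bands set after the scores were seen.

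In the band from 50 to 100, which holds 6 keratin peaks, 1.72% of 4411 wild-type peaks had a knockout partner, and none of the 6 did. From 100 to 200, 8.30% of 1939 had one, and neither of the 2 Krt8/Krt18 peaks did. From 200 to 400 it was 29.9% of 663 (26.4 to 33.5), and this band holds the Krt19 peak of 312.13, without a partner, and the Krt8/Krt18 peak of 261.62, with one. From 400 to 600 it was 66.4% of 125 (57.4 to 74.6), with the Krt8/Krt18 peak of 555.08 among those with a partner. The partner of 51.48 lay below the lower quartile (58.25) of knockout scores in its band, and the partner of 138.56 above the upper quartile (128.63) of its own. A knockout signal scoring under 50.02 would not be listed, so the lack of a knockout peak at Krt19 and Krt7 does not show that signal was absent there.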

How the data were processed

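Peak lists of 1 wild-type and 1 Sox2 knockout SOX2 ChIP library were used, with 1 list per library. Reads had been processed with Bowtie2 and MACS on mm9, per the submitters' processing notes, and no version, setting or control is stated for either. Files as deposited give a position and a score for each peak, the score being the value from the authors' peak caller on an unnamed scale. It ranks peaks within a list and is not compared as a level between libraries. Chromatin was cross-linked in 1% formaldehyde for 10 min and 4 µg of antibody was used, per the labels' protocols.

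The windows, members and lists were chosen with earlier results of these data known. All peaks in the windows are named, with the nearest peak on each side. Positions are 1-based. In place of randomly drawn windows, all consecutive windows of equal width were used. With 1 library per genotype no test was possible, and intervals cover counting error only. Counting was tested on simulated data and checked with bedtools 2.31.1. Motifs were searched in the RefSeq promoter table (GRCm38.p6). Alternatives varied the score limit, window limits, overlap rule, windows compared and motif length. Computation used SciPy 1.17.1, pandas 2.3.3 and NumPy 2.4.6 under Python 3.11.15, with figures from matplotlib 3.10.9.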

Additional observations from a re-analysis of the deposited data

How the results depend on the processing

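Over 15 values, 54 alternatives were run. In 36 the value stayed inside its interval (for counts, within 1.5 times), and 18 moved it. Some of these outcomes were fixed in advance. A knockout count of 0 cannot change under a stricter score or a smaller window. Limiting the wild-type list leaves knockout counts as they are, and a longer motif cannot be more frequent than the shorter one it contains. The tally is therefore no measure of robustness. With scores of at least 100 there was 1 wild-type peak at Krt19, 0 at Krt7 and 1 knockout peak at Krt8/Krt18. As many top wild-type as knockout peaks left 1, 0 and 2 wild-type peaks at Krt19, Krt7 and Krt8/Krt18. Windows widened by 50 kb gave 2 at Krt7. The share of equal-width windows with as many wild-type peaks became 0.287%, 27.5% and 2.60% on the chromosome of Krt19, Krt7 and Krt8/Krt18, 32.9% for Krt7 on autosomes, and 7.77% for Krt19 and 0.464% for Krt8/Krt18 at a score of at least 100, where fewer peaks are counted. No such share exists for Krt7, which had no peak left. On its own chromosome, 5.40% of peaks reached the top Krt19 peak and 67.4% the Krt7 peak. CTTTGT was in 18.7% and CTTTGTT in 5.85% of promoters, the latter in 0 of the 3 promoters of Krt7, Krt8 and Krt18. No paired analysis was possible because there was 1 library per genotype, and no replicate could be left out. Unknown depth limits every comparison between genotypes.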

Other observations

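Among all genes named Krt with a number, 36 RefSeq promoters of 35 genes were searched. CTTTG was in 20 of them (55.6%), CTTTGT in 4 (11.1%) and CTTTGTT in 2 (5.56%), and their median GC content was 48.8%. The promoter of Krt20, a further simple epithelial keratin of the gut, held no CTTTG. Neither did the promoters of Krt5 and Krt14, the filament pair of basal cells in stratified epithelia, while 1 CTTTG was found over the 2 promoters of Krt13, a keratin of stratified mucosa. No promoter was matched for Krt4, Krt15 and Krt17, further keratins of stratified epithelia, so they could not be searched.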
